A study of Saccharomyces cerevisiae with 2 samples.

Results

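The SWR1 complex is the chromatin remodeller that puts the histone variant H2A.Z into nucleosomes. The values below are ratios of recently induced to constitutively made histone H3, relative to the rest of the array, on 10 yeast genes. These genes code for the subunits SWR1, SWC3, SWC4, SWC5, VPS71, VPS72, ARP6, YAF9, RVB1 and RVB2 of the complex. The genes were chosen by name, and their probes by the gene names and systematic names listed beside each array probe. They are 10 of the 5869 genes whose reading frames could be placed among the probes. All 10 frames and 7 of the 10 promoters gave a value. The working name under which these genes were grouped calls the complex missing, and the data go against that for its genes: 54 of their 55 frame probes gave clear signal for Flag and for Myc on each array, and the remaining probe, in SWC4, was too dim in the Myc channel of replicate 1. The gene that the labels give as deleted is HTZ1, which codes for H2A.Z itself. Its 1 frame probe (chromosome 15, 303821 to 303880) was at background for Flag and Myc alike on each array.

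All samples were budding yeast (Saccharomyces cerevisiae) of 1 strain, MDY513, with HTZ1 deleted. Per the labels, the cells were held with alpha factor, the mating pheromone that arrests yeast before DNA replication, at 4 µg/mL for 4 hours and then put into medium with 2% galactose for 180 min. H3-Flag was induced by galactose and H3-Myc was made constitutively, and chromatin precipitated with anti-Flag antibody (Cy3) was set against chromatin precipitated with anti-Myc antibody (Cy5) on tiling arrays. There was 1 group of 2 replicate arrays, with the same dye orientation on both, no HTZ1 wild-type strain and no other time point, so a dye effect and a difference in H3 cannot be told apart, and no effect of the HTZ1 deletion can be read from these values. Whether separate cultures were used is not stated in the labels. The p-values test the mean of the 2 arrays against the array median, or against no difference within a gene. They judge that mean by the spread between the arrays, which may be purely technical.

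SWR1 works by exchange: its motor protein uses ATP to take out a dimer of H2A and H2B and to put in a dimer of H2A.Z and H2B, mostly in the nucleosomes that flank the nucleosome-free region of a promoter. H3 is not part of the exchanged dimer. H3 itself is replaced outside replication when whole nucleosomes are lost and rebuilt, which in yeast is known to be frequent at promoters and slow over the bodies of many genes. The complex shares subunits with the INO80 remodeller and with the NuA4 histone acetyltransferase.

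Each value is the log2 ratio of Flag to Myc relative to the array's own median probe, so that 0 means the array median and not equal amounts of the histones. A frame value is the mean of the probes whose midpoint lies between start and stop codon. A promoter value is the mean of the probes within 500 bp upstream of the start codon that lie in no frame. The median step between probe starts was 267 bp, and a member's promoter value rests on 1 or 2 used probes. Across 34899 used nuclear probes the arrays correlated at Pearson r = 0.967, a description of probes and not of independent samples, and the median SD between the arrays for a probe was 0.158 log2 units against 1.32 across probes. Calls come from limma fitted over all genes with Benjamini-Hochberg adjustment at 0.05, and they say only that a region lay off the array median. The number of arrays limits the precision of each value.

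The 10 frames spanned from more than 5-fold above the array median to more than 2-fold below it. Frames of ARP6, YAF9, SWC5 and SWC4 were called higher and those of SWC3, VPS72, RVB1, SWR1 and RVB2 lower, and VPS71 did not pass. Over all 5551 measured frames 39.0% were called higher and 42.9% lower, so 4 and 5 of 10 were close to the background shares. The median of the 10 was -0.27, against -0.06 over all frames. With the arrays centred on the median coding probe instead, every value rises by 0.345 log2 units, VPS71 passes as higher, the members split 5 to 5, and the share of higher among called frames over all genes goes from 47.6% to 65.3%.

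SWR1, the Swi2/Snf2-type ATPase that gives the complex its name and is its motor, has the longest frame of the 10, with 4545 bp on chromosome 4. The frame value was -1.24 on replicate 1 and -1.19 on replicate 2, a mean of -1.22 ± 0.04 (SD, n = 2; limma adjusted p = 1.3e-05), or 2.33-fold below the median. Both arrays lay below 0, and 3.98% of measured frames were lower. Of its 14 frame probes 12 were called lower, and the profile was a trough. The lowest probe, centred 1709 bp into the frame (1137605 to 1137664), stood at -2.59 and -2.41, with Flag signals of 440 and 367 against Myc signals of 3633 and 2686. The Flag signal was thus the weak one there, and both arrays were low alike. Towards the 3′ end the ratio climbed, and the probe at 4261 bp (1140157 to 1140216), at 1.18 and 0.97, was the only one of the frame called higher. Past the stop codon it stayed high, with 1.77 and 1.31 at 4649 bp.

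The promoter of SWR1 stood far above its frame. Its single used probe (1135757 to 1135816), 139 bp upstream of the start codon, measured 1.91 and 1.64, for a mean of 1.77 ± 0.19 (n = 2; limma adjusted p = 2.4e-25). The difference from promoter to frame was 3.15 on replicate 1 and 2.83 on replicate 2, which made it the steepest of the 7 members with both values at 2.99 ± 0.23 log2 units (limma adjusted p = 3.4e-09). The same probe is the promoter probe of RQC1, a ribosome quality control gene that is transcribed the other way and whose frame was also low at -1.31 ± 0.03. The array cannot assign the probe to either gene.

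RVB1 and RVB2 code for paired AAA+ ATPases that form the ring on which the SWR1 motor is built, and the same ring is part of INO80. Their frames were both low. RVB2 measured -1.46 and -1.40 (mean -1.43 ± 0.04, limma adjusted p = 6.3e-06), or 2.69-fold below the median, and 1.06% of all measured frames were lower. RVB1 measured -0.97 and -1.20 (mean -1.09 ± 0.17, limma adjusted p = 3.6e-05). All 5 used probes of each frame were called lower. The arrays put RVB2 below RVB1 without overlap. In RVB2 the probes ran from -1.21 and -0.90 at 132 bp down to -1.92 and -1.86 at 970 bp, and in RVB1 the lowest was at 315 bp, with -1.54 and -1.62.

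The promoters of this pair differed in direction. RVB2 measured 0.47 and 0.56 (mean 0.51 ± 0.06, limma adjusted p = 0.0030) and was called higher. RVB1 measured -0.31 and -0.52 (mean -0.42 ± 0.15, limma adjusted p = 0.015) and was the only member promoter called lower. That call rests on the distal of 2 probes: 291 bp upstream the values were -0.75 and -0.92, whereas 35 bp upstream they were 0.12 and -0.13. In a 250 bp window, which keeps just the near probe, RVB1 stood at -0.003 and was not called. The call was also lost under normexp background correction (-0.23), loess within arrays (-0.28) and centring on coding probes (-0.07). Both promoters lay above their own frames, RVB2 by 1.94 ± 0.02 (limma adjusted p = 1.4e-07) and RVB1 by 0.67 ± 0.02 (limma adjusted p = 0.0029). RVB1 shares its promoter probes with HST4, a histone deacetylase gene of the sirtuin family, and RVB2 with ENV7, a kinase gene of the vacuole.

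ARP6 and VPS71 code for an actin-related protein and a zinc-finger protein that together form the module of the complex that contacts the nucleosome. ARP6 was the member that stood apart. Its frame (1317 bp, chromosome 12) measured 2.41 and 2.44, a mean of 2.43 ± 0.02 (n = 2; limma adjusted p = 4.8e-07) or 5.39-fold above the median, and 94.7% of measured frames were lower. The arrays gave almost the same value. Within the frame the ratio rose from 1.5 and 1.47 at 192 bp to 3.33 and 3.55 at 832 bp (301129 to 301188), where Flag signals of 7814 and 5686 faced Myc signals of 1071 and 666. At 1229 bp it was still 3.05 and 3.12, and 1457 bp from the start codon, past the stop codon, it had dropped to 0.53 and 0.44. The high stretch was therefore inside the frame and towards its 3′ end, on both arrays.

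The ARP6 promoter was lower than the frame it precedes. Its probe (302119 to 302178) measured 0.55 and 0.98, a mean of 0.76 ± 0.31 (limma adjusted p = 8.1e-06). It was not called under loess within arrays (0.21) or with the probe in the SMC4 frame counted as well (0.23). The difference from promoter to frame was -1.87 and -1.46 (mean -1.67 ± 0.29, limma adjusted p = 9.7e-07), the only one of the 7 called lower. That probe is also the promoter probe of SMC4, which codes for a condensin subunit, and the SMC4 frame stood at -0.54.

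VPS71 was near the array median in both its frame value and its promoter value. Its frame measured 0.07 and 0.36 (mean 0.21 ± 0.20, limma adjusted p = 0.089) and its promoter 0.32 and -0.09 (mean 0.11 ± 0.28, limma adjusted p = 0.53). Neither passed, and the promoter lay on opposite sides of 0 on the 2 arrays. Within the frame only the probe at 142 bp was called higher, at 0.19 and 0.71 (limma adjusted p = 0.011). The promoter call also depended on the processing in both directions, since it was called higher under normexp (0.51), without the outlier filter (0.50) and with coding centring (0.46), and lower under loess (-0.37).

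VPS72 (also Swc2) binds H2A.Z, and SWC3 and SWC5 code for further subunits, of which Swc5 is needed for the exchange and binds H2A and H2B. VPS72 and SWC3 have the longest frames after SWR1, with 2388 and 1878 bp. The VPS72 frame measured -1.10 and -0.96 (mean -1.03 ± 0.10, limma adjusted p = 3.4e-05). Its 5′ end was the exception, since the probe 59 bp into the frame stood at 0.88 and 0.82 and was called higher, whereas the other 7 were called lower, down to -1.97 and -1.78 at 1875 bp. SWC3 measured -0.81 and -0.69 (mean -0.75 ± 0.09, limma adjusted p = 1.7e-04), and 5 of its 6 probes were called lower. The probe that did not pass, at 1351 bp, stood at 0.23 and 0.11. SWC5 was the opposite of both: its frame measured 0.91 and 1.14 (mean 1.03 ± 0.16, limma adjusted p = 4.7e-05), and all 3 frame probes were called higher.

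The SWC5 promoter was the highest of the 7 measured member promoters, with 2.00 and 1.84 (mean 1.92 ± 0.12, limma adjusted p = 1.8e-29) at 1 probe 257 bp upstream. YAF9 had no measured promoter, and its left-out promoter probe stood higher, at 2.46 and 2.17. Past the SWC5 stop codon the ratio was again high, with 1.96 and 2.13 at 1046 bp. Thus 1 used probe on each side of the frame stood above the SWC5 frame value on both arrays. Other probes nearby did not. The used probe 576 bp upstream stood at 0.49 and 0.39, though it was still called higher than the array median (limma adjusted p = 0.012). Of the probes left out, that 51 bp upstream stood at 0.30 and 1.14 and that at 1202 bp at 0.70 and 1.14. The promoter stood above the frame by 1.09 and 0.69 (mean 0.89 ± 0.28, limma adjusted p = 4.1e-04). This call was lost when dim probes were kept (0.29, adjusted p = 0.19). The promoter probe is shared with PBP2, an RNA-binding protein gene whose frame was at 0.02. VPS72 and SWC3 had no promoter probe that passed: the one of VPS72 carried an outlier flag, and the one of SWC3 was not well above background in the Flag channel on either array.

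SWC4 and YAF9 code for subunits that SWR1 has in common with NuA4, of which Yaf9 carries a YEATS domain that recognises acetylated histone tails. The YAF9 frame, the shortest of the 10 with 681 bp, measured 1.52 and 1.58 (mean 1.55 ± 0.04, limma adjusted p = 4.2e-06), or 2.93-fold above the median. Its ratio declined along the gene, from 2.23 and 2.52 at 46 bp through 1.57 and 1.60 at 345 bp to 0.75 and 0.61 at 587 bp. All 3 probes were called higher. The SWC4 frame measured 0.29 and 0.60 (mean 0.45 ± 0.22, limma adjusted p = 0.0055) and rose the other way, from -0.54 and 0.07 at 85 bp to 1.18 and 1.53 at 1116 bp. Only the last of its 3 used probes was called higher, and with the median in place of the mean of the probes the frame stood at 0.22 and was not called (adjusted p = 0.11). Downstream of the stop codon, at 1472 bp, the ratio was 2.15 and 1.73.

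The SWC4 promoter measured 0.28 and 0.41 (mean 0.35 ± 0.09, limma adjusted p = 0.047). It passed narrowly, and did not pass under loess (-0.14), without the filter on dim probes (0.25), in the 250 bp window or with probes in neighbouring frames counted (0.17). SWC4 shares the probe with CUL3, a cullin gene. The YAF9 promoter has 1 probe, which stood at 2.46 and 2.17. This probe was well above background in Flag on both arrays and not well above background in Myc on replicate 1, and it was left out. It also serves YNL108C, whose frame was called higher at 0.60 ± 0.11.

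**Figure D1:**
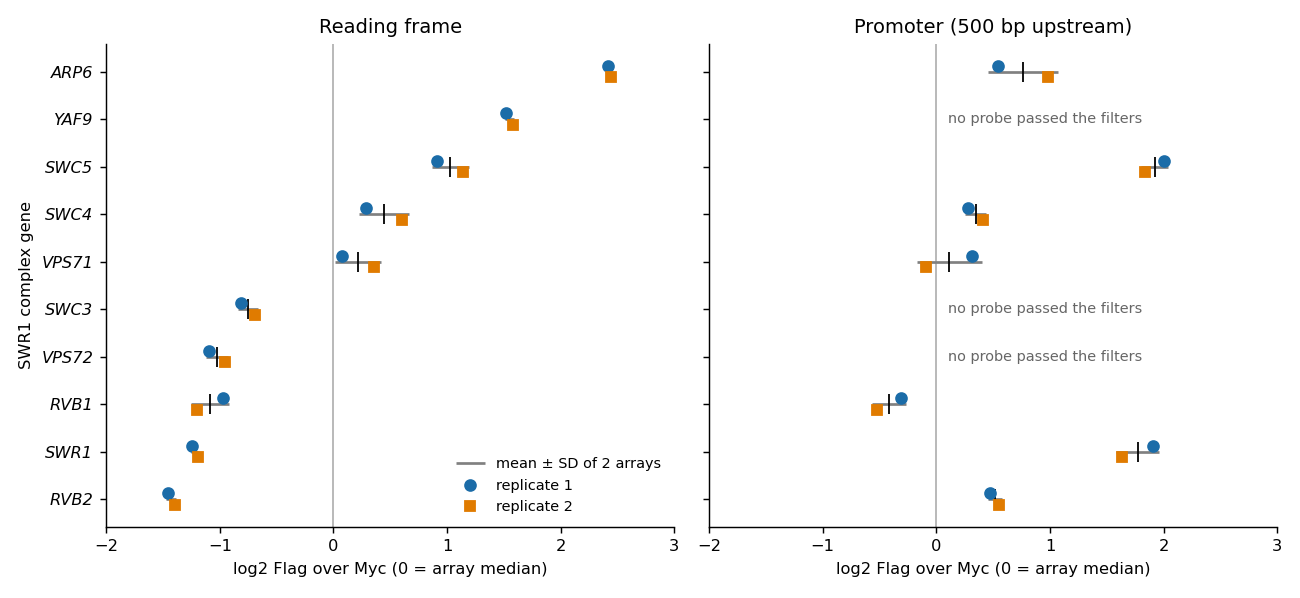
Ratio of Flag to Myc in log2 units, with the array median at 0, for the reading frame (left) and the promoter (right) of each of the 10 SWR1 complex genes, ordered by frame value. Circles and squares are replicates 1 and 2, the vertical tick is their mean and the grey bar is ± SD. Frames run from 2.43 in ARP6 to -1.43 in RVB2, and 3 promoters have no probe that passed the filters.

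In descending order the frames were ARP6, YAF9, SWC5, SWC4, VPS71, SWC3, VPS72, RVB1, SWR1 and RVB2. Values on the 2 arrays overlapped between neighbours for SWC4 and VPS71, for VPS72 and RVB1, and for RVB1 and SWR1, and these neighbours do not differ beyond their spread. Every other neighbouring pair kept its order on both arrays with no overlap. At the level of single probes, 14 of the 54 used frame probes of the members (25.9%) were called higher and 34 (63.0%) lower, and 6 did not pass. Over the 25734 used frame probes of the array the shares were 29.9% and 50.1%, and over all 34899 probes, promoters included, 40.5% and 40.1%. The median frame probe of the members was -0.94 and that of all genes -0.35. SWR1, VPS72, SWC3, RVB1 and RVB2 hold most of these probes, so the probe count weighs the low genes more than the gene count does.

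**Figure D2:**
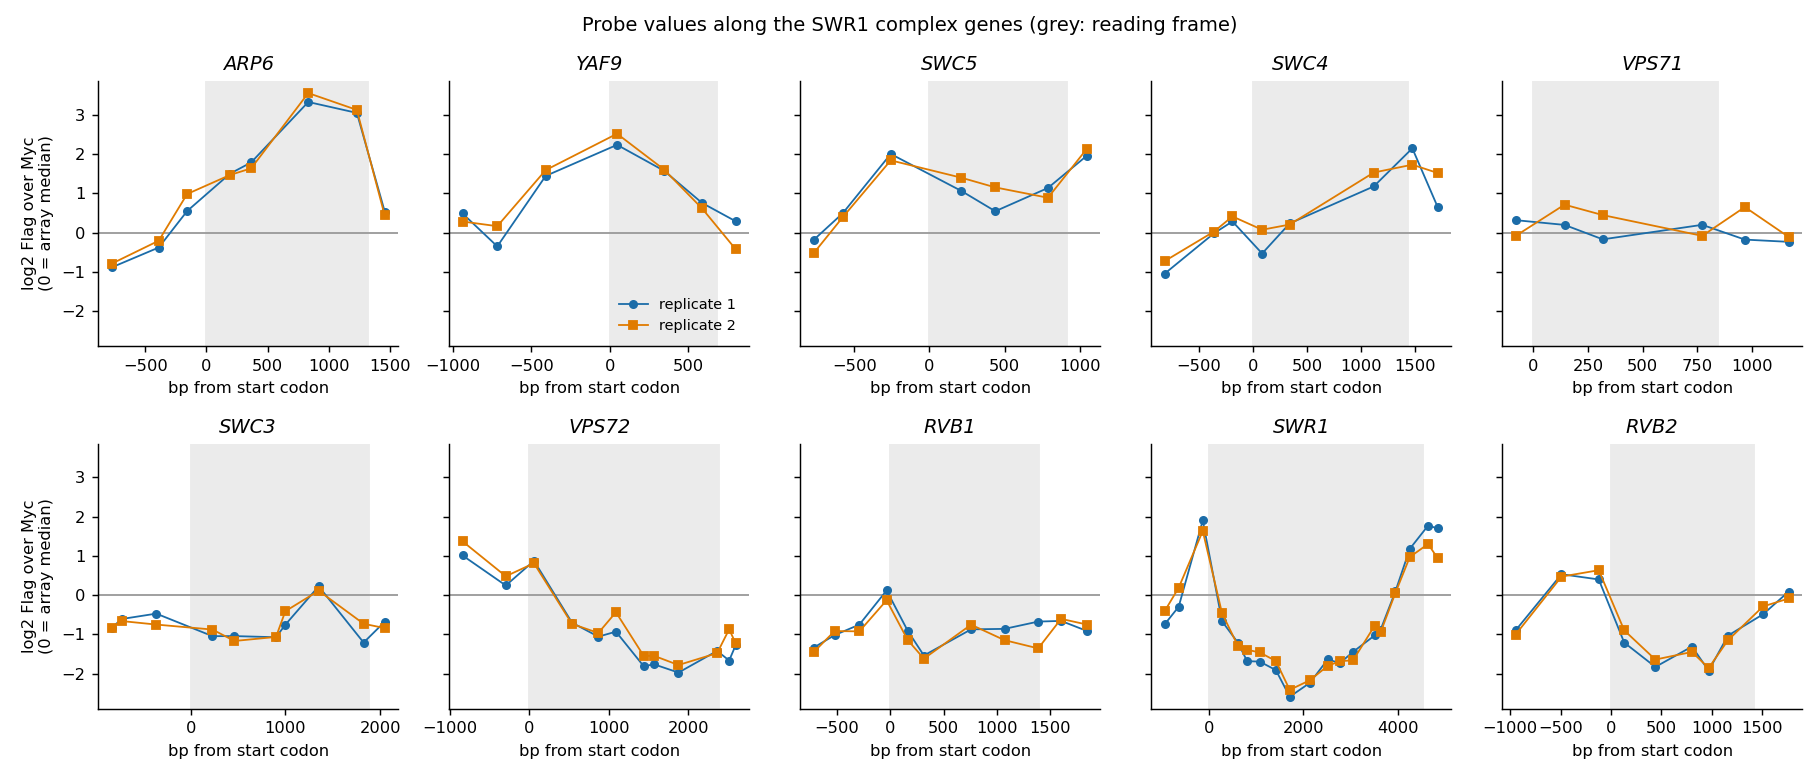
Probe values along each of the 10 genes, with distance from the start codon in bp on the horizontal axis (a different range in each panel), log2 Flag over Myc on the vertical axis and the frame shaded grey. Blue circles are replicate 1 and orange squares replicate 2, for probes that passed the filters. The SWR1 profile falls to a trough 1709 bp into the frame, the ARP6 profile peaks at 832 bp and the VPS72 and YAF9 profiles fall from the 5′ end.

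The shape of each frame was compared by cutting it into 3 equal parts. Genome-wide, the middle part lay below the mean of the outer parts, called lower in 67.2% and higher in 6.17% of 3841 frames, with a median of -0.53. Of the 9 members with a probe in every part, 2 were called lower, 2 higher and 5 did not pass. SWR1 followed the common shape with a middle 1.14 log2 units below its ends (-1.14 ± 0.02, limma adjusted p = 1.0e-11), and VPS72 did so by less (-0.46 ± 0.18, limma adjusted p = 0.0025). ARP6 had the opposite shape, with a middle 1.1 ± 0.17 above its ends (limma adjusted p = 4.1e-11), and RVB1 showed 0.34 ± 0.31 (limma adjusted p = 0.023). For RVB1 the arrays gave 0.12 and 0.56. SWC4 gave no value because its middle probe was the dim one.

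From the first to the last part, 41.7% of all frames were called higher at the 5′ side and 30.9% higher at the 3′ side. Among the members each direction held 3 genes. Frames of VPS72 (1.73 ± 0.08, limma adjusted p = 1.3e-20) and YAF9 (1.69 ± 0.30, limma adjusted p = 7.3e-20) were high at the 5′ end. VPS71 was called in the same direction at 0.40 ± 0.56 (limma adjusted p = 0.039), a difference carried by replicate 2, with 0.79 there and -0.002 on replicate 1. Frames of ARP6 (-1.49 ± 0.12, limma adjusted p = 1.0e-15), SWR1 (-0.90 ± 0.16, limma adjusted p = 1.6e-06) and SWC3 (-0.63 ± 0.11, limma adjusted p = 8.2e-04) were high at the 3′ end. RVB1, RVB2 and SWC5 did not pass, though RVB1 was called lower under normexp (-0.47) and loess (-0.49), SWC5 was called lower under loess (-0.65), and VPS71 lost its call under both. RVB2 was the flattest, with -1.39, -1.38 and -1.49 in its first, middle and last part.

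Promoters of the members were called higher in 5 and lower in 1 of 7, against 75.9% and 7.01% of 4522 promoters over all genes. SWC5, SWR1, ARP6, RVB2 and SWC4 were the 5, and their order on the arrays overlapped between SWC5 and SWR1 and between ARP6 and RVB2. The member median was 0.51, against 0.98 over all promoters. The split of 5 to 1 became 6 to 0 under normexp and under centring on coding probes, 3 to 1 under loess, and 5 to 2 when dim probes were kept. Of the 16 promoter probes of the members 9 were used, 4 were dim and 3 carried an outlier flag, and the dim share of 25.0% was near the 27.2% of all promoter probes, so promoter values rest on little more than 1 probe a gene. Of the 10 genes 8 are transcribed away from their upstream neighbour, and all of these except VPS71 share their promoter probes with it, whereas SWC3 lies downstream of CYS3 and VPS72 downstream of VPS60 in the same orientation.

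Within genes, the promoter was called above the frame in 4 of 7 members and below it in 1, against 69.3% and 10.4% of 4375 genes. The 4 were SWR1, RVB2, SWC5 and RVB1. The median difference of the 7 was 0.67, and over all genes it was 0.91. SWC4 (-0.10 ± 0.13, limma adjusted p = 0.61) and VPS71 (-0.10 ± 0.49, limma adjusted p = 0.65) did not pass. Under loess both were called lower, at -0.74 and -0.75, and under normexp VPS71 was called higher, at 0.39.

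**Figure D3:**
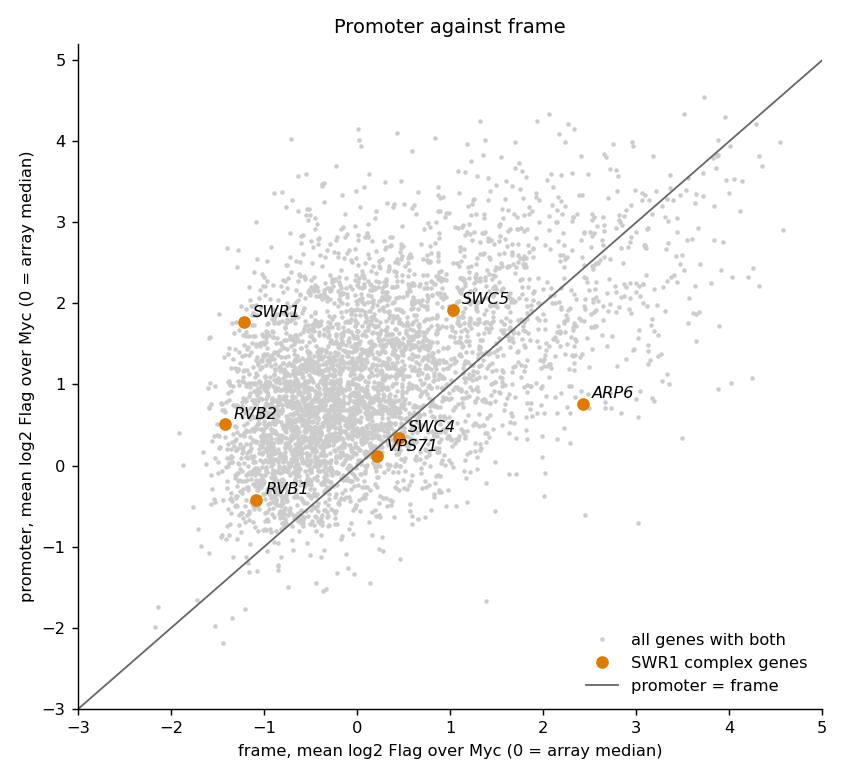
Promoter value against frame value for every gene with both (grey) and for the 7 SWR1 complex genes that have both (orange), each the mean of 2 arrays in log2 units, with the line on which promoter and frame are equal. SWR1 lies 2.99 above that line and ARP6 1.67 below it.

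Longer frames had lower values across the genome, and the members differ in length. All measured frames were put into 4 length classes of about equal number. In the shortest class, from 78 to 755 bp, the median was 0.70, and in the longest, from 1902 to 14733 bp, it was -0.64, with 72.5% called lower. SWR1 and VPS72 belong to the longest class, where 8.87% and 20.3% of frames were lower than they were, which put SWR1 just below the 10th percentile of its class at -1.19. YAF9 belongs to the shortest class, where 73.2% of frames were lower. ARP6, RVB1, RVB2, SWC3 and SWC4 share the class from 1233 to 1899 bp, whose median was -0.24. Within that class ARP6 was above 97.7% of frames and RVB2 above only 1.01%, so genes of nearly the same length, 1317 and 1416 bp, stood at opposite ends. RVB1 was above 7.0% and SWC3 above 21.3% of the class. SWC5 and VPS71, in the class from 756 to 1230 bp, were above 78.8% and 52.4% of it. The part of length in these values was not tested.

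**Figure D4:**
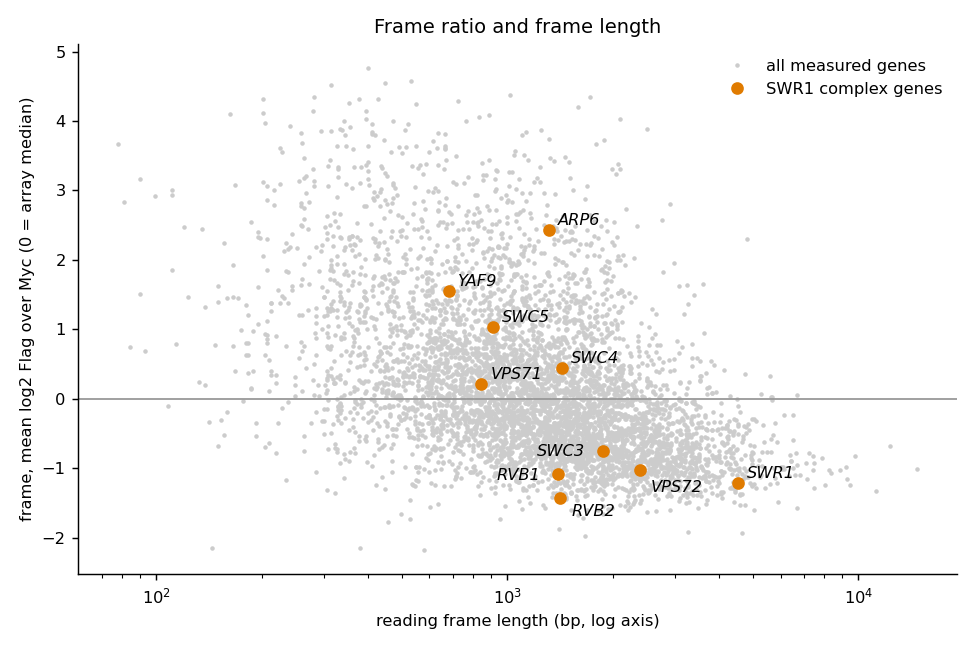
Frame value (log2 Flag over Myc, mean of 2 arrays) against frame length in bp on a log axis, for all measured genes (grey) and the 10 SWR1 complex genes (orange). ARP6 at 1317 bp stands at 2.43 and RVB2 at 1416 bp at -1.43.

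The frames of 4 other subunits of SWR1 ranged from -0.91 to 1.55. BDF1, a bromodomain protein that binds acetylated histones, measured -0.08 and 0.19 in its frame (mean 0.05 ± 0.19, limma adjusted p = 0.65), and with the median of its probes it stood at -0.28 and was called lower, whereas with coding centring it stood at 0.40 and was called higher. ACT1 (actin) measured 1.69 and 1.41 (mean 1.55 ± 0.20, limma adjusted p = 8.2e-06) and ARP4, the actin-related protein that SWR1 shares with INO80 and NuA4, 1.18 and 1.16 (mean 1.17 ± 0.01, limma adjusted p = 1.5e-05). SWC7 measured -0.85 and -0.97 (mean -0.91 ± 0.08, limma adjusted p = 6.0e-05). So 2 of these 4 were called higher, 1 lower and 1 did not pass, beside 39.0% and 42.9% of all frames. ARP4 resembled ARP6 in that its promoter lay below its frame, by -1.32 ± 0.52 (limma adjusted p = 2.5e-05). Promoters of BDF1 (2.40 ± 0.05, limma adjusted p = 7.7e-45) and ACT1 (2.15 ± 0.49, limma adjusted p = 1.8e-36) were called higher, and those of SWC7 and ARP4 did not pass.

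The related complexes were counted in the same way. ARP4 and ACT1, whose frames were called higher, stand with the other SWR1 subunits above and were left out of these counts. Of 11 INO80 frames, RVB1 and RVB2 not among them, 5 were called higher and 4 lower with a median of -0.01, close to the 39.0% and 42.9% of all frames. They ran from IES6 at 3.53 ± 0.20 down to ARP5 at -1.06 ± 0.13. IES6 and ARP5 code for subunits that bind each other, and their genes stood at opposite ends of the list. Of 10 INO80 promoters 7 were called higher and 0 lower, with a median of 0.95, against 75.9% and 7.01% of all promoters. Of 9 NuA4 frames outside the members, 2 were called higher and 5 lower with a median of -0.26, again beside 39.0% and 42.9% of all frames. They ran from EAF5 at 0.94 to TRA1, the very large protein that activators bind, at -1.33. Of 6 NuA4 promoters 4 were called higher, beside 75.9% of all promoters, with a median of 1.09, led by EPL1 at 2.35, and EAF3 was the lowest at 0.04.

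The last of the larger groups held the genes for H2A, H2B and H2A.Z, the histones that SWR1 exchanges, and for the chaperones Chz1 and Nap1 that carry them. Of 4 measured frames in this group 3 were called higher, HTB1 at 3.37, HTB2 at 2.78 and CHZ1, the H2A.Z chaperone, at 1.08, and NAP1 at -0.16 did not pass. The 3 called frames are short, 396 bp for HTB1 and HTB2 and 462 bp for CHZ1. They belong to the shortest length class, where 65.4% of frames were called higher. All 7 promoters of the group were called higher, from HTA1 at 3.82 down to NAP1 at 0.90, where 75.9% of all promoters and 39.0% of all frames were. The promoter of the deleted HTZ1 is 1 of these 7. The H2A and H2B genes exist as near-identical copies, so their frame probes may read both copies, and HTA2 and HTB2 share a promoter probe and so have 1 value between them. PIH1 and TAH1, whose products work with Rvb1 and Rvb2 in assembling other complexes, had frames at 1.23 and 1.45. Both were called higher, beside 39.0% of all frames. These were of opposite sign to the frames of RVB1 and RVB2, but the genes differ in length class. In the class of TAH1 (336 bp) 65.4% of frames were called higher, and in that of PIH1 (1035 bp) 46.7%. In the class of RVB1 and RVB2 50.3% were called lower.

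**Figure D5:**
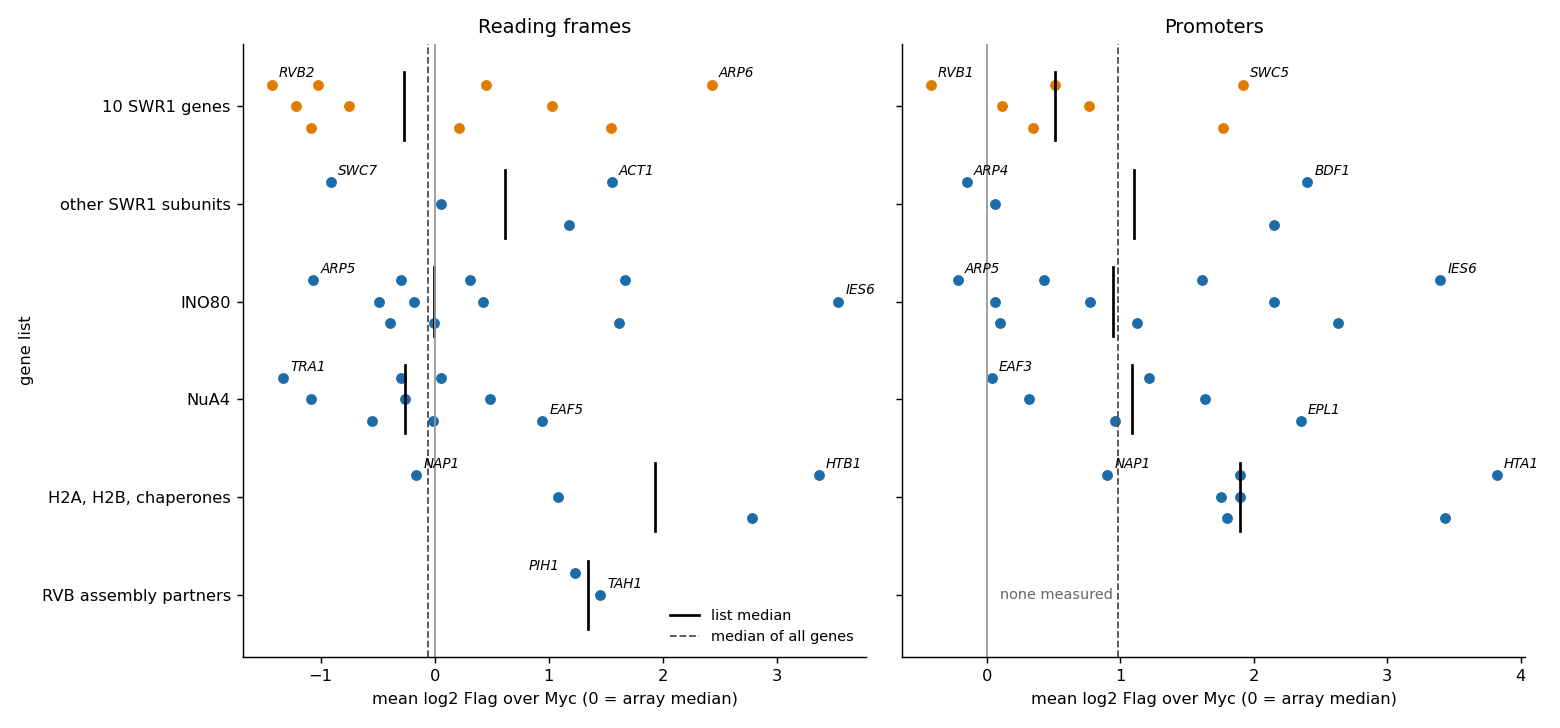
Mean log2 Flag over Myc of 2 arrays for each measured gene (points) of the SWR1 complex (orange) and of the related lists (blue), for frames (left) and promoters (right); points are spread vertically for visibility. Black bars are list medians and the dashed line is the median of all genes, -0.06 for frames and 0.98 for promoters. The lowest and highest gene of each list are named.

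As checks of the strain, the promoter of the deleted HTZ1 was measured at 1.75 ± 0.03 upstream of its dark frame. BAR1 codes for the protease that degrades alpha factor, and 5 of the 6 probes in its frame were likewise at background throughout, against 2.42% of nuclear probes, and the labels do not mention this gene.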

How the data were processed

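Both arrays were 2-colour Agilent tiling arrays of 60 bp probes. Per the file headers, the authors extracted each spot's intensity in Agilent Feature Extraction 8.5.1.1 with spatial detrending and surrogate values. The flags for dim, saturated and outlier spots are those of the deposited files. The deposited log10 ratio is red (Myc) over green (Flag), and the deposited value table holds its log2 form uncentred, with medians of 0.373 and 0.350. Its sign was turned here. Processed intensity in the deposited files exceeded the background-subtracted signal by a median factor of 7.75 and 12.7 for Flag and 3.58 and 4.72 for Myc on replicates 1 and 2.

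Here, log2 green over red processed signal was centred on each array's median (-0.458 and -0.459 before). Of 41282 nuclear probes, 3964 dim ones and 2419 with outlier flags were left out, and 0 were saturated. Left ends of 6593 frames came from the distances listed in the files, and lengths from a RefSeq table of assembly R64, which matched 5927. Of these 5927, 58 were left out because the shift of their left end from the R64 start was more than 30 bp off that of neighbouring genes. Coordinates are those of the files, of a build not given in the sources used here. Tests used limma 3.58.1 in R 4.3.3 (lmFit on an intercept, eBayes, two-sided, adjusted over all regions, threshold 0.05), checked on simulated data. For promoters and for the first against the last frame part limma estimated 1 common spread, which makes those p-values very small. For the middle against the outer parts the standard errors of the members differed little, from 0.138 to 0.141. With 2 arrays an exact two-sided sign-flip test cannot go below 0.5. Alternatives were normexp (offset 50), loess, equal spread, no dim or outlier filter, coding centring, the value table, the median of probes, 1 array left out, a 250 bp window and probes in neighbouring frames. The members and gene lists were chosen with earlier results of these data known. All members, their promoter partners, the other SWR1 subunits, strain checks and each list's extremes are named. Promoter sequences were not analysed here.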

Additional observations from a re-analysis of the deposited data

How the results depend on the processing

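No paired analysis was possible because the samples form 1 group. The planned search for promoter motifs was not run, since it needs a genome. The same member frames were called under every tested alternative except centring on coding probes, which added VPS71 as higher, and the median of probes, under which SWC4 lost its call and VPS71 gained one. Of 616 single-gene values under alternatives, 582 kept their direction and their side of the threshold. Another 12 gained a call, 15 lost one and 7 turned direction, and the cause was not tested. The 7 were the frame of BDF1 with the median of probes (-0.28), the promoter of SWC4 (-0.14) and the promoter of VPS71 (-0.37) under loess, promoter minus frame of VPS71 under normexp (0.39), promoter minus frame of ACT1 without the outlier filter (-0.48), first minus last of SWC5 under loess (-0.65) and first minus last of VPS71 with 1 array left out (-0.0021 to 0.79). Member values that were not called also lay on opposite sides of 0 on the arrays: for VPS71 its promoter, promoter minus frame and middle minus outer parts, for SWC5 and RVB2 middle minus outer and first minus last part. Among counts, member promoters called higher went from 5 to 3 under loess and in the 250 bp window. Those called lower went from 1 to 0 under normexp, coding centring and the 250 bp window, and to 2 without the dim filter and with neighbouring frames counted. Under loess, promoter minus frame was called lower in 3 members in place of 1, and first minus last part in 5 in place of 3. In the other lists, frames called lower became 2 for the other SWR1 subunits (median of probes), 1 for INO80 (loess, coding centring), 2 for NuA4 (coding centring, with 4 higher) and 1 for the histone list (normexp, loess, no dim filter). Promoters called higher in the 250 bp window became 1, 4, 2 and 3 for the other SWR1 subunits, INO80, NuA4 and the histone list, NuA4 reached 7 with neighbouring frames counted, and 1 other SWR1 promoter was called lower under loess. The number of promoters measured changes with these windows. Over all genes 3752 were tested in the 250 bp window in place of 4522, with 2685 called higher in place of 3432. With neighbouring frames counted, 5185 were tested and 3781 called higher. In the 250 bp window SWC5 had no value, since its used probe lies 257 bp upstream, and SWC4 kept its probe and its value. Signal over background limits promoters most, with 27.2% of promoter probes dim against 1.93% of frame probes.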
